A study of Homo sapiens with 12 samples.

Results

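JmjC histone demethylases are enzymes that remove methyl groups from histone lysines with a catalytic Jumonji C domain. The 10 members described here, KDM2A, KDM2B, KDM3A, KDM3B, KDM4A, KDM4B, KDM4C, KDM5A, KDM5B and KDM6B, were found by gene symbol among the 23106 genes of the count tables, and all 10 passed the filter on low counts. Their mRNA was measured by polyA RNA-seq in RCC4 cells, a line of epithelial origin from a clear cell renal cell carcinoma (ccRCC) that lacks functional VHL. Because VHL is the ubiquitin ligase component that marks hypoxia-inducible factor (HIF) alpha subunits for destruction, such cells hold HIF-1α and HIF-2α at ordinary oxygen levels. Cells were harvested 48 h after transfection with pools of siRNA. The 4 groups received 2 nM of control (non-targeting) siRNA, 1 nM of HIF1A siRNA with 1 nM of control siRNA, 1 nM of HIF2A siRNA (against EPAS1, which encodes HIF-2α) with 1 nM of control siRNA, or 1 nM each of both HIF siRNAs (double knockdown). There were 3 replicates in each group and 12 libraries in all. All libraries therefore came from 1 cell line without functional VHL, no untransfected or VHL-restored group is analysed here, and mRNA was the only readout of the enzymes. In such bulk samples, fewer cells of a type and less RNA per cell cannot be told apart.

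The Jumonji C domain binds iron and uses 2-oxoglutarate and molecular oxygen, as do the prolyl hydroxylases that mark HIF-α for VHL. KDM2A and KDM2B act on methylated lysine 36 of histone H3 and carry a CxxC zinc finger that binds unmethylated CpG islands. KDM3A and KDM3B act on lysine 9, the KDM4 enzymes on lysines 9 and 36, the KDM5 enzymes on lysine 4, and KDM6B on lysine 27 of the same histone. KDM3A and KDM4B are known from earlier work as genes induced by hypoxia in many cell types, and HIF acts on such genes through a short DNA motif, the hypoxia response element.

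The core of that element reads ACGTG or GCGTG. Both were searched on both strands (CACGT and CACGC on the reverse) in the RefSeq promoter windows of the GRCh38.p14 assembly, from 250 bases before to 50 after each annotated start. The palindrome CACGTG counts as 2 overlapping matches to ACGTG. All 10 members were found there by gene symbol, with 16 windows. ACGTG was found in 3 of the 16 windows and GCGTG in 12, while 21.4% and 36.5% of all 35116 promoter windows held them. The 2 KDM3A windows overlap and share a single GCGTG site, which is counted in each. Member windows had 53% to 84% G or C bases, and the share over all windows was not matched for this. At least 1 of the motifs was present in 13 of the 16 windows, beside 48.4% of all windows, and 9 of the 10 members had such a window, although members with several starts had more chances to hold a match. The window of KDM3B held neither. A match is a description of letters, not evidence of HIF binding. The 250 bases before the start are shown for the 3 members whose mRNA fell in at least 1 comparison with control siRNA. They are the first of 2 KDM3A windows (chr2:86441121-86441370, plus strand), the KDM4B window (chr19:4968863-4969112, plus strand) and the KDM5B window (chr1:202808422-202808671, minus strand), each 5′ to 3′ along its gene with the motifs in capitals:
KDM3A: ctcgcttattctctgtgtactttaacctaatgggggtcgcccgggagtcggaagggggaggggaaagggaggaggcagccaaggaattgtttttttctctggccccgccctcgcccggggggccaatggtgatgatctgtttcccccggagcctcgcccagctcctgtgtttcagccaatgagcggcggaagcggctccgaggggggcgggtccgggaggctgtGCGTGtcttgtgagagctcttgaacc
KDM4B: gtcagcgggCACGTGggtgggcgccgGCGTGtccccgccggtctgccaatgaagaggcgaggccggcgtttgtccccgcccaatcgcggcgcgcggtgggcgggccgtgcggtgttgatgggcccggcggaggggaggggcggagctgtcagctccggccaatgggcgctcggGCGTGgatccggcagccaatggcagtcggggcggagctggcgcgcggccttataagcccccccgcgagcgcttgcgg
KDM5B: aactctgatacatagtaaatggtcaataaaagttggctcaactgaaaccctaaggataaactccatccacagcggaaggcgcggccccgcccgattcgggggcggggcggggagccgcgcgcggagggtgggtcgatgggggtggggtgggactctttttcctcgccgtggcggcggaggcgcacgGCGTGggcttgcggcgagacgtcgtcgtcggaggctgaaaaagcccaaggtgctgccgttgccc
The KDM3A stretch holds GCGTG at 26 bases before the start. That of KDM4B holds the palindrome, beginning 241 bases before the start, and GCGTG at 224 and 77 bases before it. That of KDM5B holds GCGTG at 64 bases before the start. The window of KDM4C holds the palindrome as well, beginning 63 and 31 bases before the start.

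Library totals lay between 13263168 and 20451433 counts, and the 10 members together took 535 to 914 CPM (the count as a share of the library total, scaled by TMM and expressed as counts in a library of uniform size). PAX8, a renal lineage transcription factor, was present at 197 to 315 CPM, and the other 7 renal epithelial markers on the list were detected in every library, LHX1 at 0.930 to 3.31 CPM only. Of these 8, KRT18 rose and KRT19 fell in the double knockdown against control (log2 fold changes 0.49 and -0.57, edgeR adjusted p = 0.027 and 0.0035), and none was called with a single HIF siRNA. The endothelial and immune markers PECAM1, PTPRC and CD3E had 0 counts in every library. The endothelial markers VWF and CDH5 had at most 8, and the fibroblast and pericyte marker DCN at most 1. CD68, COL1A1 and PDGFRB, listed as markers of macrophages, fibroblasts and pericytes, had 9 to 1341 counts, and none of the 3 was called in any comparison. On the log2 scale COL1A1 differed from control by -0.02 (HIF1A siRNA), 0.77 (HIF2A siRNA) and 0.04 (double knockdown; edgeR adjusted p = 1, 0.48 and 0.94), and was higher in all 3 pairs with HIF2A siRNA. The differences of PDGFRB, in the same order, were -0.58, 0.62 and -0.35 (edgeR adjusted p = 0.89, 0.95 and 0.63). Those of CD68 were 0.17, -0.11 and 0.24 (edgeR adjusted p = 0.9, 0.96 and 0.24).

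The siRNA targets were lowered in the libraries labelled for them. HIF1A stood at 120.2, 58.2 and 112 CPM in control replicates 1, 2 and 3, at 15, 17.8 and 22.2 CPM with HIF1A siRNA, at 111, 116 and 136 CPM with HIF2A siRNA and at 24.2, 32.2 and 29.7 CPM in the double knockdown. EPAS1 stood at 163, 138 and 171 CPM in control libraries, at 101, 107 and 134 CPM with HIF1A siRNA, at 9.16, 11.9 and 9.33 CPM with HIF2A siRNA and at 8.54, 11.3 and 7.01 CPM in the double knockdown. The control library of replicate 2 was the lowest in HIF1A. With HIF1A siRNA, EPAS1 was lower than control in all 3 pairs without passing the test (log2 fold change -0.47, edgeR adjusted p = 0.28). The part of this lower EPAS1 level in the members' values was not tested. CA9 and PGK1, known target genes of HIF-1, served as a scale for the size of a change. Under HIF1A siRNA the log2 fold change was -3.64 for CA9, a carbonic anhydrase, and -1.46 for PGK1, a glycolytic enzyme.

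Levels between genes were compared as CPM per kb of transcript. In control cells KDM2A had the highest mean level (24.0 ± 3.39 CPM per kb, SD, n = 3), followed by KDM3A (19.0 ± 3.46), KDM4A (18.9 ± 4.04), KDM3B (17.9 ± 2.39), KDM4B (13.9 ± 1.78), KDM5B (11.5 ± 2.81), KDM2B (8.36 ± 0.865), KDM5A (5.73 ± 0.756), KDM4C (5.02 ± 0.890) and KDM6B (2.37 ± 0.295). Only 2 neighbours in this order had ranges that did not overlap, KDM2B above KDM5A and KDM4C above KDM6B. With HIF1A siRNA, KDM3A (10.1 ± 0.431 CPM per kb) ranked below KDM4A (17.3 ± 5.09) and KDM3B (16.5 ± 3.96), with a range that overlapped neither, and KDM4B (6.93 ± 1.48) ranked below KDM5B (7.93 ± 3.33). With HIF2A siRNA the 10 genes kept the control order except that KDM4A (20.2 ± 5.56 CPM per kb) stood before KDM3A (17.5 ± 2.67).

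**Figure D1:**
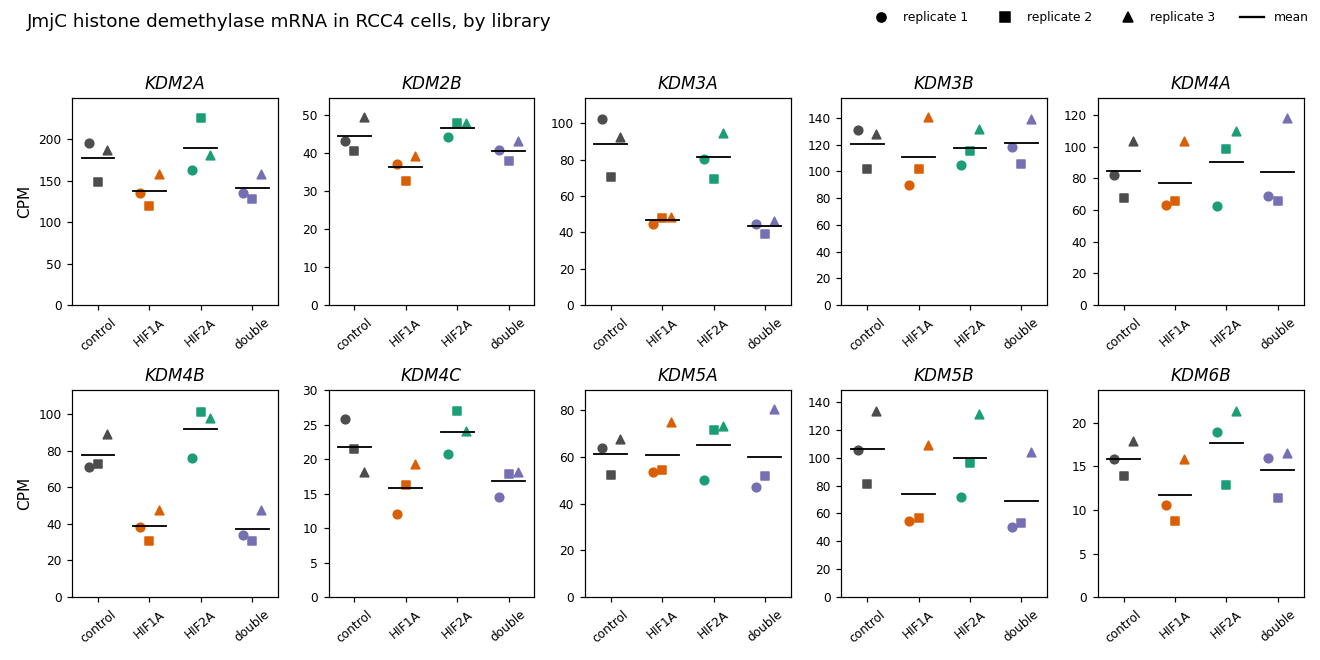
Level of each member in CPM (vertical axis, starting at 0, with a scale of its own for each gene) in the 4 siRNA groups. Circles, squares and triangles are replicates 1, 2 and 3 and the line is the mean. KDM3A and KDM4B sit lower in all 6 libraries that received HIF1A siRNA than in all 6 that did not. Replicate 3 is the highest of each group for KDM2B, KDM4A, KDM5A, KDM5B and KDM6B, a pattern not counted over all genes.

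HIF1A siRNA against control siRNA asked which members differed in mRNA when HIF1A was lowered in these cells. KDM4B and KDM3A fell, to 50.02% and 53.8% of control. The other 8 members did not pass the test, and KDM5B had the next lowest adjusted p. The test was the quasi-likelihood F test of edgeR on the counts, blocked by replicate number. A gene was called where its p, adjusted by Benjamini-Hochberg over every gene tested, was under 0.05. The 2 members called, both lower, compare with 1.17% of 12830 genes called in either direction and 1.14% called lower.

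KDM4B, an eraser of H3K9 and H3K36 methylation, stood at 71.1, 72.8 and 89.1 CPM in control replicates 1, 2 and 3 and at 38.3, 30.9 and 47.4 CPM with HIF1A siRNA. Every library with HIF1A siRNA lay below every control library. The log2 fold change was -1.0 (SE 0.15, 95% interval -1.32 to -0.68, edgeR adjusted p = 0.0035), and the pairs gave -0.88, -1.23 and -0.90.

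KDM3A, an eraser of H3K9 methylation, stood at 102, 70.7 and 92.4 CPM in control and at 44.8, 47.8 and 48.6 CPM with HIF1A siRNA. The groups did not overlap, and the spread was narrower after HIF1A siRNA (SD 2.01 CPM, n = 3) than in control (SD 16.1 CPM, n = 3). The log2 fold change was -0.89 (SE 0.14, 95% interval -1.20 to -0.59, edgeR adjusted p = 0.0049), with -1.18, -0.56 and -0.92 in the pairs. Without the replicate block, neither call was made (edgeR adjusted p = 0.10 for KDM3A and 0.11 for KDM4B, with log2 fold changes of -0.91 and -1.0). The call on KDM3A also ended without HIF1A siRNA replicate 1, without HIF1A siRNA replicate 3 and without replicate 3 of all groups (edgeR adjusted p = 0.09, 0.06 and 0.13), which left KDM4B as the 1 member called.

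KDM5B, an eraser of H3K4 methylation, stood at 106, 81.1 and 133 CPM in control and at 54.8, 57.0 and 109 CPM with HIF1A siRNA. It was lower in all 3 pairs, but replicate 3 with HIF1A siRNA lay within the control range. Its log2 fold change of -0.58 (SE 0.16, 95% interval -0.93 to -0.23) did not pass the test (edgeR adjusted p = 0.17). It passed in 5 of 20 alternatives, with DESeq2 (adjusted p = 0.037), without a filter on low counts (edgeR adjusted p = 0.044), with trends in GC content and length removed (0.043), without control replicate 2 (0.044) and without HIF2A siRNA replicate 2 (0.043).

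KDM2A stood at 195, 149 and 187 CPM in control and at 135, 120.0 and 158 CPM with HIF1A siRNA. Its log2 fold change was -0.36 (SE 0.16) and the groups overlapped. KDM2B, which recruits a variant Polycomb complex (PRC1.1) to CpG islands, stood at 43.2, 40.6 and 49.5 CPM in control and at 37.1, 32.7 and 39.3 CPM with HIF1A siRNA. Its groups did not overlap, and its log2 fold change was -0.29 (SE 0.13, edgeR adjusted p = 0.65). KDM6B, an eraser of H3K27 methylation and the lowest of the members per kb, stood at 15.9, 13.9 and 17.9 CPM in control and at 10.6, 8.70 and 15.8 CPM with HIF1A siRNA. Its log2 fold change was -0.47 (SE 0.17, edgeR adjusted p = 0.44), with overlapping groups. KDM4C, of the same subfamily as KDM4B, stood at 25.8, 21.4 and 18.1 CPM in control and at 12.1, 16.3 and 19.3 CPM with HIF1A siRNA. Its pairs differed in sign, with log2 ratios of -1.06, -0.38 and 0.09.

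KDM3B stood at 131, 102 and 128 CPM in control and at 89.7, 102 and 141 CPM with HIF1A siRNA. KDM4A stood at 82.5, 67.9 and 104 CPM and at 63.0, 65.6 and 104 CPM, and KDM5A at 63.9, 52.2 and 67.8 CPM and at 53.7, 54.5 and 74.9 CPM. In all 3 the groups overlapped. KDM3B, KDM4A and KDM5A had log2 fold changes of -0.14, -0.15 and -0.02, with 95% intervals of -0.45 to 0.17, -0.51 to 0.20 and -0.35 to 0.32. Changes of the size seen for KDM3A and KDM4B lay outside these intervals. The 3 genes belong to the same subfamilies as KDM3A, KDM4B and KDM5B.

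Counted over all 10 members, the log2 fold change was below 0 in all 10, with a median of -0.42, beside a median of 0.00 and 49.3% below 0 over all genes tested. Unadjusted p was under 0.05 in 7 members (7.33% of all genes), 7 were lower in all 3 pairs (15.4% of all genes), and in 3 the groups did not overlap, all lower (4.22% of all genes). The 10 genes were measured in the same libraries and are not independent of each other. They were also chosen with earlier results of these data known, so these counts are descriptions.

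**Figure D2:**
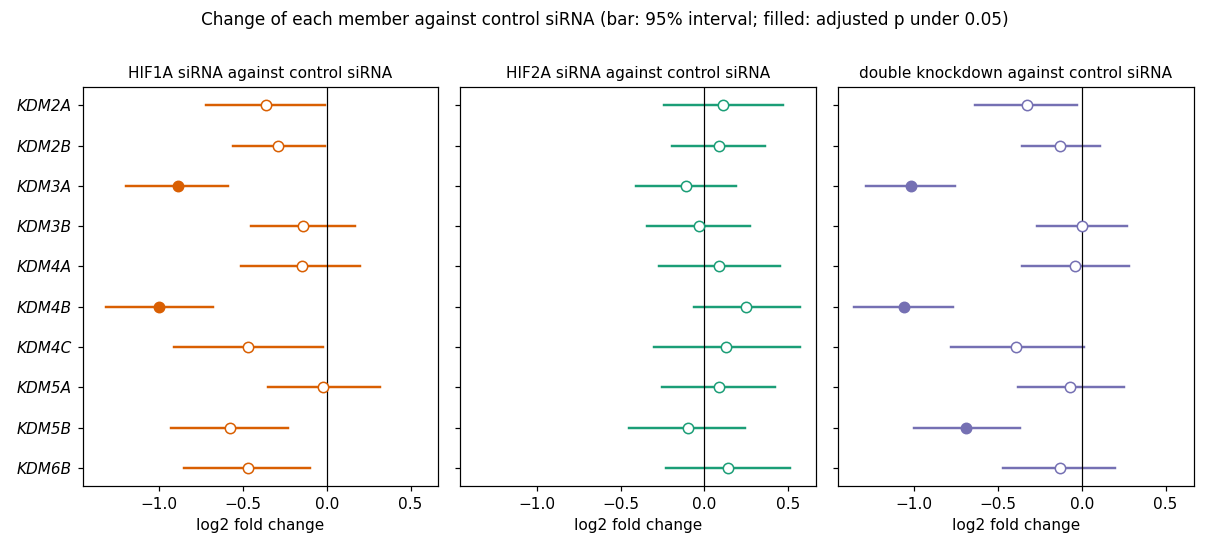
Log2 fold change of each member against control siRNA (horizontal axis) for HIF1A siRNA, HIF2A siRNA and the double knockdown. Bars are 95% intervals and filled points have an edgeR adjusted p under 0.05. The filled points are KDM3A and KDM4B with HIF1A siRNA (-0.89 and -1.0) and KDM3A, KDM4B and KDM5B in the double knockdown (-1.02, -1.06 and -0.69), and every interval with HIF2A siRNA includes 0.

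HIF2A siRNA against control siRNA asked the same with EPAS1 lowered. No member was called, and none had an unadjusted p under 0.05, beside 0.0857% of all genes called by edgeR and 5.38% at that unadjusted p. DESeq2 called no member either. Log2 fold changes ran from -0.11 (KDM3A) to 0.25 (KDM4B), with a median of 0.09 beside 0.01 over all genes. The lowest lower bound among the 10 separate 95% intervals was -0.45 (KDM5B), or 73.1% of control, and the highest upper bound was 0.57 (KDM4B and KDM4C). Each member has narrower limits of its own, such as -0.19 to 0.36 for KDM2B, -0.41 to 0.19 for KDM3A and -0.06 to 0.57 for KDM4B.

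KDM4B stood at 76.2, 101 and 97.8 CPM with HIF2A siRNA. It was the 1 member higher than control in all 3 pairs (log2 ratios 0.10, 0.47 and 0.13, with 10.8% of all genes higher in all 3 pairs), with a 95% interval of -0.06 to 0.57. KDM3A stood at 80.5, 69.6 and 94.5 CPM with HIF2A siRNA, inside the control range but for the lowest value. KDM5B stood at 71.7, 96.1 and 132 CPM, lower than control in 2 pairs and higher in 1. KDM2A ranged from 162 to 226 CPM, KDM2B from 44.2 to 48.0, KDM3B from 105 to 132, KDM4A from 62.5 to 110.3, KDM4C from 20.7 to 27.0, KDM5A from 50.2 to 73.2 and KDM6B from 12.9 to 21.4 CPM. Each of these ranges overlapped the control range.

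The difference between the siRNAs was tested directly. With HIF1A siRNA, KDM4B was lower than with HIF2A siRNA by a log2 fold change of -1.25 (SE 0.15, 95% interval -1.58 to -0.93, edgeR adjusted p = 0.00052). KDM3A was lower by -0.79 (SE 0.14, 95% interval -1.09 to -0.49, edgeR adjusted p = 0.0098). These were the 2 members called, both lower, beside 1.5% of all genes called in either direction and 1.23% called lower. KDM5B (-0.48), KDM6B (-0.61), KDM4C (-0.60), KDM2A (-0.48) and KDM2B (-0.37) had edgeR adjusted p-values of 0.14 to 0.28, and KDM5B passed only without control replicate 1 (edgeR adjusted p = 0.043). The groups did not overlap in 5 members, KDM2A, KDM2B, KDM3A, KDM4B and KDM4C, all lower with HIF1A siRNA (4.35% of all genes). Of the 3 listed fibroblast and pericyte markers, DCN had at most 1 count in any library. COL1A1 (-0.79) and PDGFRB (-1.2) were also lower in all 3 pairs of this comparison (19.3% of all genes). Their groups overlapped and neither passed the test (edgeR adjusted p = 0.12 and 0.31), and their part in the members' values was not tested. The call on KDM4B held in all 20 alternatives. That on KDM3A was lost in 5, without the block (edgeR adjusted p = 0.16), without replicate 3 of all groups (0.34), and without HIF1A siRNA replicate 1 (0.13), HIF1A siRNA replicate 3 (0.11) or HIF2A siRNA replicate 3 (0.13).

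The double knockdown against control siRNA showed the same members low, together with KDM5B. With HIF1A siRNA alone KDM5B had a log2 fold change of -0.58 without passing the test. The double knockdown comparison shares its control libraries with those above, so the values are set side by side only. In it 3 members were called, all lower, beside 10.3% of 13000 genes called in either direction and 6.42% called lower. KDM4B stood at 33.9, 30.6 and 47.9 CPM and KDM3A at 44.3, 39.3 and 46.4 CPM, all below the control range. Their log2 fold changes were -1.06 (SE 0.14, edgeR adjusted p = 0.00018) and -1.02 (SE 0.12, edgeR adjusted p = 8.1e-05). Both calls held in all 22 alternatives, the fit without the block included.

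KDM5B stood at 50.3, 53.2 and 104 CPM in the double knockdown. Replicate 3 was again the highest and lay within the control range. The log2 fold change was -0.69 (SE 0.15, 95% interval -1.0 to -0.37, edgeR adjusted p = 0.0079), and the pairs gave -1.06, -0.60 and -0.36. The call was lost without the replicate block (edgeR adjusted p = 0.60), without replicate 1 of all groups (0.13) and without double knockdown replicate 1 (0.065).

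The other 7 members were not called in the double knockdown. Log2 fold changes were -0.39 for KDM4C (14.5, 17.9 and 18.2 CPM), -0.33 for KDM2A (136, 128 and 159 CPM), and between -0.13 and 0.00 for KDM2B, KDM3B, KDM4A, KDM5A and KDM6B. KDM2A passed in 3 of 22 alternatives, with only the 2 groups in the fit (edgeR adjusted p = 0.019), without replicate 2 of all groups (0.027) and without HIF2A siRNA replicate 2 (0.016). KDM3B stood at 118, 106 and 139 CPM, KDM4A at 68.8, 65.7 and 118 CPM and KDM5A at 47.3, 52.0 and 80.4 CPM. In 2 members, KDM3A and KDM4B, the groups did not overlap (8.55% of all genes, lower). The members' median log2 fold change was -0.23, and the median size of the change regardless of sign was 0.23 both for the members and for all genes.

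Adding HIF2A siRNA to HIF1A siRNA moved no member past the test (1.4% of all genes were called). The log2 fold changes of the double knockdown against HIF1A siRNA ran from -0.13 (KDM3A, 95% interval -0.39 to 0.14) to 0.34 (KDM6B, 95% interval 0.00 to 0.68, edgeR adjusted p = 0.42). For KDM4B the value was -0.06 (95% interval -0.36 to 0.24) and for KDM5B -0.10 (95% interval -0.41 to 0.22). None of the 10 members had an unadjusted p under 0.05 (12.2% of all genes had), and DESeq2 called none. HIF1A mRNA itself was higher in the double knockdown than with HIF1A siRNA alone in all 3 pairs, and the groups did not overlap. Its log2 fold change of 0.66 (95% interval 0.21 to 1.11) did not pass the test (edgeR adjusted p = 0.18), and its part in the members' values was not tested.

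Adding HIF1A siRNA to HIF2A siRNA lowered KDM4B (log2 fold change -1.31, SE 0.14, edgeR adjusted p = 3.6e-05), KDM3A (-0.91, SE 0.12, edgeR adjusted p = 4e-04) and KDM5B (-0.57, SE 0.15, edgeR adjusted p = 0.044). These 3 members compare with 4% of all genes called in either direction and 3.22% called lower. In 5 members the groups did not overlap, all lower (5.52% of all genes). COL1A1 (-0.71) and PDGFRB (-0.95) were lower in all 3 pairs here as well (19.9% of all genes), with overlapping groups (edgeR adjusted p = 0.081 and 0.22). Their part in the members' values was not tested. The call on KDM5B lay close to the threshold and was lost in 13 of 22 alternatives, with edgeR adjusted p-values of 0.059 to 0.97. These were the fits without the block, with only the 2 groups compared, without any of the replicate numbers 1, 2 and 3, and without any library of HIF1A siRNA, any of the double knockdown or replicate 2 or 3 of HIF2A siRNA. That on KDM3A was lost in 1, without replicate 3 of all groups (edgeR adjusted p = 0.053).

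The interaction, the difference between the effect of HIF1A siRNA with and without HIF2A siRNA, was called in none of the 10 members and in 0 of 13000 genes by edgeR, with 318 genes (2.45%) and no member at an unadjusted p under 0.05. DESeq2 called 11 genes and no member. The members' values ran from -0.31 (KDM4B, 95% interval -0.72 to 0.11) to 0.21 (KDM6B, 95% interval -0.27 to 0.68). For KDM3A the value was -0.01 (95% interval -0.38 to 0.36) and for KDM5B 0.02 (95% interval -0.43 to 0.46). The part of the higher HIF1A level in the double knockdown than with HIF1A siRNA alone was not tested here either.

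The members differed in how much of their variation followed the siRNA. Over the 12 libraries, the siRNA condition held 89.6% of the variance of log2(CPM + 0.5) for KDM3A and 87.6% for KDM4B, beside a median of 19.2% over all genes. It held 68.4% for KDM2B, 60% for KDM4C and 58.6% for KDM2A. For KDM5B it held 34.3% and the replicate number 56.5%, and for KDM6B 40.7% and 50.9%. For KDM3B, KDM4A and KDM5A the condition held 3.8% to 8.33% and the replicate number 58.9% to 73.2%, beside a median of 46.4% for the replicate number over all genes. In KDM2B, KDM4A, KDM5A, KDM5B and KDM6B, replicate 3 was the highest library in all 4 groups. The share of all genes with this pattern was not counted, so it is not a trait of the members. What replicate 3 shares beyond its number is not given in the labels.

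**Figure D3:**
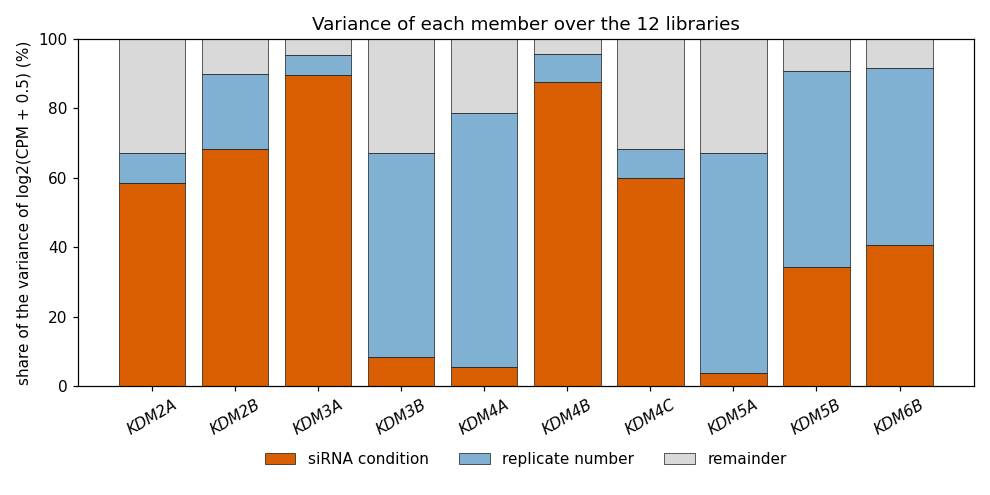
Share of the variance of log2(CPM + 0.5) over 12 libraries (vertical axis, percent) held by the siRNA condition, the replicate number and the remainder for each member. The siRNA condition fills most of the bars of KDM3A (89.6%) and KDM4B (87.6%), and the replicate number most of those of KDM4A (73.2%) and KDM5A (63.3%).

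Within a library, the ratio of 2 paralogs does not depend on the scaling between libraries. KDM3A to KDM3B, both erasers of H3K9 methylation, stood at 1.13, 1.00 and 1.04 in control, on the scale of CPM per kb, and at 0.720, 0.677 and 0.498 with HIF1A siRNA. With HIF2A siRNA it was 1.11, 0.871 and 1.03, and in the double knockdown 0.540, 0.536 and 0.481. The 6 libraries with HIF1A siRNA were all below the 6 without it. KDM4B to KDM4A stood at 0.690, 0.859 and 0.687 in control and at 0.487, 0.377 and 0.366 with HIF1A siRNA. It was 0.975, 0.819 and 0.710 with HIF2A siRNA and 0.395, 0.373 and 0.324 in the double knockdown, so that these libraries separated in the same way. KDM5B to KDM5A was 1.98 ± 0.249 in control, 1.35 ± 0.285 with HIF1A siRNA, 1.75 ± 0.282 with HIF2A siRNA and 1.30 ± 0.169 in the double knockdown (SD, n = 3 each). The control range (1.79 to 2.27) lay above those with HIF1A siRNA (1.18 to 1.68) and of the double knockdown (1.18 to 1.49), and the range with HIF2A siRNA (1.54 to 2.07) overlapped that with HIF1A siRNA. KDM2B to KDM2A ranged from 0.294 to 0.417 over all libraries. No test was run on these ratios, which restate the levels above.

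**Figure D4:**
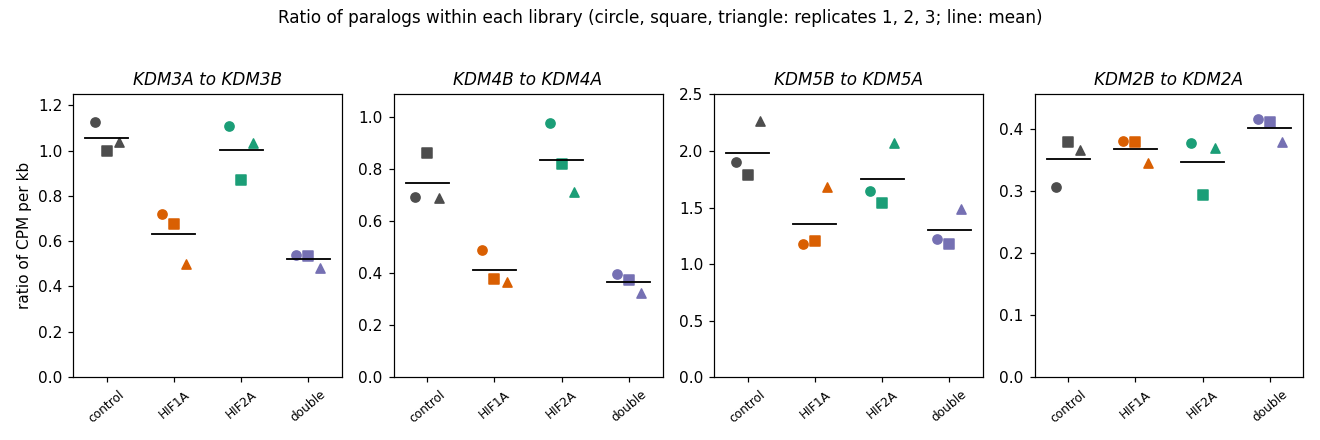
Ratio of 2 paralogs within each library (vertical axis, ratio of CPM per kb, starting at 0) in the 4 siRNA groups, with replicates 1, 2 and 3 as circle, square and triangle and the mean as a line. KDM3A to KDM3B is 0.481 to 0.720 in the 6 libraries with HIF1A siRNA and 0.871 to 1.13 in the other 6, while KDM2B to KDM2A stays between 0.294 and 0.417.

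Genes whose pattern was most like that of the called members were listed by Pearson correlation of log2 CPM over the 12 libraries, after removal of replicate means, among 12999 other genes. The libraries are shared, so these values are descriptions. The 5 nearest to KDM3A were PLOD2 (r = 0.987), a lysyl hydroxylase of collagen, BHLHE41 (0.987), a circadian repressor, BNIP3L (0.985), a mitophagy receptor, RIMKLA (0.983) and PLAGL1 (0.983). The 5 nearest to KDM4B were PFKL (0.988) and TPI1 (0.988), which encode glycolytic enzymes, C4orf3 (0.985), ANKZF1 (0.982) and ABCB6 (0.982). The 5 nearest to KDM5B were WEE1 (0.994), a kinase that restrains entry into mitosis, RIOK3 (0.982), PRKAR1A (0.978), a regulatory subunit of protein kinase A, PHKA2 (0.971) and ZBTB41 (0.967).

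Other genes of histone and nucleic acid demethylation were taken from lists. Of 20 other JmjC genes in the tables, 18 were tested, and none was called in any comparison with control siRNA. The lowest p belonged to KDM7A (symbol JHDM1D in the tables), an eraser of H3K9 and H3K27 methylation, with log2 fold changes of -0.66 with HIF1A siRNA, -0.68 with HIF2A siRNA and -0.98 in the double knockdown (edgeR adjusted p = 0.77, 0.93 and 0.07), and, with HIF2A siRNA, to JMJD6 (0.25, edgeR adjusted p = 0.93). KDM7A had a mean of 4.83 CPM in control.

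Of the 3 genes of the flavin-dependent demethylases, which need no 2-oxoglutarate, RCOR1, a partner of KDM1A, fell in the double knockdown (log2 fold change -0.64, SE 0.19, edgeR adjusted p = 0.048). The median of its 3 libraries was 16.7 CPM, beside 31.6 CPM in control, and the groups overlapped. With HIF1A siRNA its log2 fold change was -0.67 (edgeR adjusted p = 0.27). KDM1B had the lowest p with HIF2A siRNA (-0.34, edgeR adjusted p = 0.82).

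Of 27 genes tested from a list of histone lysine methyltransferases, which also held the non-catalytic PRC2 subunits SUZ12 and EED, 1 was called in the double knockdown. DOT1L, which methylates H3K79 and so none of the lysines given above for the members, rose by a log2 fold change of 0.52 (SE 0.12, edgeR adjusted p = 0.014). None was called with a single HIF siRNA, where the lowest p belonged to EZH1 with HIF1A siRNA (0.47, edgeR adjusted p = 0.46) and to DOT1L with HIF2A siRNA (0.27, edgeR adjusted p = 0.93).

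A list of other enzymes that use 2-oxoglutarate held 12 tested genes of the TET, FTO and ALKBH groups. Of these, ALKBH5, which removes N6-methyladenosine from RNA, fell in the double knockdown (-0.59, SE 0.13, edgeR adjusted p = 0.01). It stood at 104 to 119.7 CPM there and at 146 to 194 CPM in control. With HIF1A siRNA it stood at 103 to 122 CPM, also below the control range, and its log2 fold change of -0.55 (SE 0.14) did not pass the test (edgeR adjusted p = 0.12). With HIF2A siRNA the lowest p was that of ALKBH1 (-0.38, edgeR adjusted p = 0.94).

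None of 8 tested partners of KDM2B in PRC1.1 was called in these comparisons. The lowest p belonged to BCOR with HIF1A siRNA (-0.13), YAF2 with HIF2A siRNA (-0.16) and PCGF1 in the double knockdown (0.50), with edgeR adjusted p-values of 0.94, 0.96 and 0.27. Median log2 fold changes with HIF1A siRNA were -0.01 for the other JmjC genes and -0.03 for the methyltransferase list. They were -0.08 for the TET, FTO and ALKBH genes and -0.07 for the PRC1.1 partners, beside -0.42 for the 10 members. Members and lists were chosen with earlier results of these data known, so the contrast between them is a description and not a test.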

How the data were processed

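PolyA RNA of RCC4 cells was sequenced in 12 libraries, 3 replicates for each of 4 siRNA groups, assigned from the sample labels. Per the labels' processing notes and the paper's methods, the authors trimmed reads with Trim Galore (0.3.3), aligned them to hg19 (GRCh37) with HISAT2 (2.05), filtered them with Picard (2.0.1), counted them per gene with HTSeq (0.5.4p3) and tested pairs of conditions with DESeq2. They deposited raw counts, without normalization, for 23106 gene symbols. Whether counting used strand is not given in the sources used here, so reads of genes that overlap on opposite strands cannot be told apart. The single-cell data of the study were not used here.

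Counts were tested with edgeR (4.0.16, R 4.3.3) by its quasi-likelihood test, with TMM normalization, its filter on low counts (at least 10 in a library of typical size in 3 libraries, 15 in total), a block for the replicate number, and p-values adjusted by Benjamini-Hochberg. The comparisons without the double knockdown used 9 libraries (12830 genes) and the others 12 (13000 genes). Which libraries shared a fit in the study is not given in the sources used here. The methods pair conditions by biological replicate without naming replicate numbers, and equal numbers in the labels were taken to mark a replicate, which is an inference. In the counts, the deviations from group means correlated by 0.0991 to 0.813 between libraries of equal number and by -0.724 to 0.527 between libraries of different number. The p-values measure the spread between these cultures of 1 line. No library duplicated another.

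CPM used library totals (13263168 to 20451433 counts) times TMM factors (0.980 to 1.02). Members had 121 to 3549 counts in a library, which limits the precision of KDM6B and KDM4C most. Ratios within pairs were taken after adding 0.5 CPM, and levels per kb used the length of the GENCODE v44 canonical transcript (all 10 members), not the gene model of the counting. Beside the members, the genes named are the siRNA targets, CA9 and PGK1, the listed genes called against control siRNA or else of lowest p, and the 5 genes most like each called member. The members and gene lists were chosen with earlier results of these data known. Alternatives were other scaling (DESeq2 size factors), filters, libraries and tests (DESeq2 1.42.0), removal of trends with GC content and length, no block, and leaving out libraries. The code was tested on simulated data without differences between replicate numbers, which cannot show how the block performs.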

Additional observations from a re-analysis of the deposited data

How the results depend on the processing

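Fits without the replicate block, that is without the pairing, called 0 members with HIF1A siRNA (2 with it), 1 between HIF1A and HIF2A siRNA (2), and 2 each in the double knockdown against control and against HIF2A siRNA (3 each), and 0 in the other comparisons. Leaving out a library or a replicate number gave 1 to 3 members with HIF1A siRNA against control, 1 to 3 between HIF1A and HIF2A siRNA, 2 to 4 in the double knockdown against control and 1 to 3 against HIF2A siRNA, the 1 being without replicate 3. The interaction, HIF2A siRNA against control and the double knockdown against HIF1A siRNA gave 0 members under every alternative run. Of 1470 member values under the alternatives, none changed direction while called, 27 lost a call and 9 gained it, and of 1249 values uncalled in both fits 102 changed sign. Over all genes, HIF1A siRNA called 150 genes (41 without the block, 236 by DESeq2, 66 without HIF1A siRNA replicate 1 to 219 without HIF2A siRNA replicate 2), HIF2A siRNA 11 (1, 58 and 1 to 33) and the double knockdown 1336 (195 without the block, 302 without replicate 3, 2609 with only its 2 groups in the fit). HIF1A against HIF2A siRNA called 193 genes (52 without the block, 329 by DESeq2, 90 to 351 leaving out libraries). Against HIF1A siRNA, the double knockdown called 182 (8 without the block, 656 with only 2 groups fitted, 26 to 442 leaving out libraries). Its count against HIF2A siRNA was 520 (90 without the block, 818 by DESeq2, 158 to 672 leaving out libraries). The share of the double knockdown's calls against control that were lower was 62.4% and, without the block, 83.6%. No scaling moved the median of all genes by more than 0.01. Both scalings run, TMM and DESeq2 size factors, centre most genes near 0, so this median cannot show a change shared by most genes. The causes of the differences between fits were not tested.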

Other observations

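KDM1B, a flavin-dependent demethylase of H3K4 named here after its values were seen, was called between the siRNAs. It stood at 28.4, 34.5 and 50.9 CPM (lowest, median and highest of 3 libraries) with HIF1A siRNA and at 18.4, 21.5 and 33.0 CPM with HIF2A siRNA, with control between them at 24.8, 27.8 and 39.1 CPM. The log2 fold change of HIF1A siRNA against HIF2A siRNA was 0.64 (SE 0.13, 95% interval 0.36 to 0.92, edgeR adjusted p = 0.024), opposite in direction to those of KDM3A and KDM4B. Against control siRNA it was 0.30 with HIF1A siRNA (edgeR adjusted p = 0.64) and -0.34 with HIF2A siRNA (edgeR adjusted p = 0.82), neither of which passed the test. In the double knockdown KDM1B was higher than with HIF2A siRNA alone (0.49, SE 0.11, edgeR adjusted p = 0.022).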
